A study of Mus musculus with 24 samples.

Results

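The 10 genes described here are imprinted genes looked for in CD4 T cells: Plagl1, Airn, Igf2r, Slc22a18, Osbpl5, Gnas, Impact, Snrpn, Grb10 and H13. Every probe of the scanner files that carries one of these names, or an older symbol of the same gene, was taken, which gave 26 of the 41174 gene probes of the array. Only Airn was found under an older symbol, Air. Probes were matched by name alone, but the 10 genes had been chosen with earlier results of these data known. Of the 26 probes 16 passed the filter on dim signal, and they belonged to 8 of the 10 genes, among 16457 genes kept in all.

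CD4 T cells were sorted from female C57BL/6 mice, and their total RNA was hybridised to 24 Agilent 1-colour arrays, 4 for each of 6 groups. CKO mice carry a T cell-specific conditional knockout of Trim28, and WT mice are the age-matched wild-type controls; the promoter that drives the deletion is not named in the labels. The 6 groups were CKO Treg, WT Treg, CKO naive cells after 13 h of stimulation, WT naive cells after 13 h of stimulation, CKO unstimulated naive cells and WT unstimulated naive cells. Treg were sorted as CD4+CD62+CD25+ and naive cells as CD4+CD62+CD25-, and the stimulation was with plate-coated antibodies to CD3 and CD28. Replicate 4 of every group came from mice 7 weeks old, as did replicate 1 of both stimulated groups and of CKO Treg; all other samples, with replicate 1 of WT Treg among them, came from mice 6 weeks old. The treatment field calls the 4 CKO Treg samples TCR-stimulated and the 4 WT Treg samples unstimulated, whereas the design text describes stimulation for naive cells only. If that field is right, genotype and stimulation cannot be told apart in Treg. The labels do not say whether the 4 replicates of a group were separate animals, so the spread that p-values rest on is that between these samples and may be technical.

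Imprinted genes are transcribed mainly or only from the copy inherited from one parent, and the choice is kept by DNA methylation set in the germ line at imprinting control regions. TRIM28 is the scaffold that KRAB zinc finger proteins such as ZFP57 recruit to the methylated copy, where it brings the histone methyltransferase SETDB1 and DNA methyltransferases and so keeps the imprint in early embryos. The arrays measured the RNA of both copies together in inbred mice, so none of the values below separates the parental alleles.

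A promoter window of each of 4 members is printed because these genes carry the results that follow. The printed windows of Plagl1 and Osbpl5 hold the letters TGCCGC. Those of Airn and Igf2r, an overlapping pair transcribed in opposite directions, do not. TGCCGC is the core that ZFP57 is known to read when it is methylated. It was searched on both strands, as TGCCGC and as its reverse complement GCGGCA, and matches stand in capitals. The windows run from 250 bases before to 50 bases after the gene's start in RefSeq, build GRCm38.p6, and are written 5′ to 3′ on the strand of the gene. Plagl1 lies on the plus strand at chr10:13090582-13090881, Osbpl5 on the minus strand at chr7:143740311-143740610, Airn on the plus strand at chr17:12741061-12741360 and Igf2r on the minus strand at chr17:12769657-12769956.
Plagl1: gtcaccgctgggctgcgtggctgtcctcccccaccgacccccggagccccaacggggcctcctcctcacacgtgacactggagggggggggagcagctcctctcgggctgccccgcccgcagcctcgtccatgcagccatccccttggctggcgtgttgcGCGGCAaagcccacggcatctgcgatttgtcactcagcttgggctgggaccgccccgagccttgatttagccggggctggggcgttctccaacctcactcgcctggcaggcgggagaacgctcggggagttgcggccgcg
Osbpl5: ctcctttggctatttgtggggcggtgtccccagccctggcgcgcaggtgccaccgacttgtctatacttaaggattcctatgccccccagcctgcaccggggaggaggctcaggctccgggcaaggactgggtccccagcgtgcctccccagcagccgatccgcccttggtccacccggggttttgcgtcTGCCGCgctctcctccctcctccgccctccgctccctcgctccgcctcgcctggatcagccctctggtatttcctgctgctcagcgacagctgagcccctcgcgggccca
Airn: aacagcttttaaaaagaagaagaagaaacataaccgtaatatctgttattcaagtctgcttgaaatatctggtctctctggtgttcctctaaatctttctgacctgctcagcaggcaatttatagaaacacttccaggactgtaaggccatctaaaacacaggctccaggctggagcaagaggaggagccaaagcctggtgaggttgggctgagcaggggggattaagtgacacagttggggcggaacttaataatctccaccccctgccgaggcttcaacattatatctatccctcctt
Igf2r: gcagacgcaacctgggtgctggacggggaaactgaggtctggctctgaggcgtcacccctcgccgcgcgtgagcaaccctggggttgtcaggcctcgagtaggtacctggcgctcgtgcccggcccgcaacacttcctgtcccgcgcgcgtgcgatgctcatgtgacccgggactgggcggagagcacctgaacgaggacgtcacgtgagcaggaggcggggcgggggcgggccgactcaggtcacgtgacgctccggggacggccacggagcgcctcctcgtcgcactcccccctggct
The RefSeq table held 18 windows for 9 of the 10 members. TGCCGC stood in 4 of these windows, 1 each for Plagl1, Osbpl5, Snrpn and Grb10, and in 11.6% of all 32851 windows of the same length. CG pairs numbered 26 in the Plagl1 window, 21 in the printed Osbpl5 window, 3 in the Airn window and 34 in the Igf2r window. Osbpl5 also had windows 2 and 3, not printed, with 1 and 16 CG pairs and no TGCCGC. The median over the member windows was 16, against 7 over all windows. A match describes these letters in this window, and no match says nothing about binding.

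Signal is given as the log2 of the scanner's processed signal minus the log2 of the 75th percentile of that array, so that 0 is a signal equal to that percentile. That percentile ran from 31.3 to 116 units in CKO Treg and from 53.9 to 200.2 units in WT Treg, and from 154 to 372 units on the 16 naive arrays, so dim probes were least well measured in Treg. Between 43.0% and 61.2% of probes per array were called well above background by the scanner software, and replicates of a group correlated at 0.961 to 0.993 over the brightest kept probe of each gene. The number of arrays limits the precision. Trim28 itself was lower in CKO in each state, with log2 fold changes of -1.57 in Treg, -2.68 in stimulated and -1.51 in unstimulated cells, and no overlap between genotypes. All 5 CD4 T cell markers present on the array were well above background on all 24 arrays. In Treg the summed signal of the 6 Treg markers was 154 to 217 times the 75th percentile in CKO and 171 to 246 times in WT. The 6 markers summed to 68.8 to 112.7 in CKO and 72.3 to 97.4 in WT stimulated cells, and to 39.4 to 53.5 in CKO and 39.1 to 59.8 in WT unstimulated cells. A measure of probe position also moved with genotype: for 4574 other genes with kept probes at least 1000 bases apart, the median of the most 5′ minus the most 3′ probe, centred over the arrays, was -0.02 to 0.12 in CKO and -0.38 to -0.07 in WT unstimulated cells, with no overlap. It was -0.08 to 0.02 in CKO and -0.23 to 0.01 in WT stimulated cells, and 0.10 to 0.31 in CKO and -0.0009 to 0.21 in WT Treg. The measure was chosen after the data had been seen, and for the members called in unstimulated cells, and for the counts in gene lists, the values with it as a covariate are given too.

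Plagl1, Airn, Igf2r, Slc22a18, Osbpl5, Gnas, Impact and H13 had RNA above background in these cells, whereas Grb10 and Snrpn did not, so the description of all 10 as expressed in CD4 T cells does not hold for those 2. The filter retained a probe if, in 1 group or more, 3 or 4 of its arrays passed the scanner's background test. Grb10, an adaptor that binds insulin and IGF receptors and dampens their signal, had 3 probes, of which 1 was well above background on 1 array, CKO stimulated replicate 4, at -4.04. Snrpn, a core protein of splicing particles, had 2 probes, of which 1 was well above background on 1 array of the 24. Igf2r, Impact and Osbpl5 were measured by 1 probe each, Slc22a18 by 1 kept probe of 2, Plagl1 by 2 of 2, Airn and H13 by 3 of 3 each and Gnas by 4 of 8. Where a gene had several kept probes, the one brightest over the 24 arrays stood for it and the others are given beside it.

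In CKO cells Plagl1 was lower in all 3 states, and the other members that passed the test did so in 1 state each, in both directions. A gene is called changed where the Benjamini-Hochberg adjusted p of limma, taken over all kept probes, is under 0.05. In Treg, 1 of the 8 measured members was lower in CKO (Plagl1) and 0 were higher, with 2 members at an unadjusted p under 0.05. Of all 16457 genes 1.77% were lower and 2.38% higher in that comparison. In stimulated naive cells 1 member was lower (Plagl1) and 3 were higher (Airn, Igf2r and H13), beside 12.0% lower and 11.3% higher of all genes. In unstimulated naive cells 3 members were lower (Plagl1, Osbpl5 and Gnas) and 1 was higher (Slc22a18), beside 10.9% lower and 7.88% higher of all genes. The median log2 fold change of the 8 members was -0.13 in Treg, 0.15 in stimulated and -0.24 in unstimulated cells, against 0.00, -0.05 and 0.01 over all genes. The count of 4 members in unstimulated cells was 0 without WT replicate 1 or 2, 1 without CKO replicate 3, and 2 without CKO replicate 1, CKO replicate 2 or WT replicate 3. Scaling on the 1000 brightest probes moved the median of all genes to 0.30 in stimulated and 0.21 in unstimulated cells, and the share of calls that were higher to 88.9% and 76.3%, against 48.6% and 41.9% with the 75th percentile. With quantile normalization that share was 61.3% in stimulated cells.

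**Figure D1:**
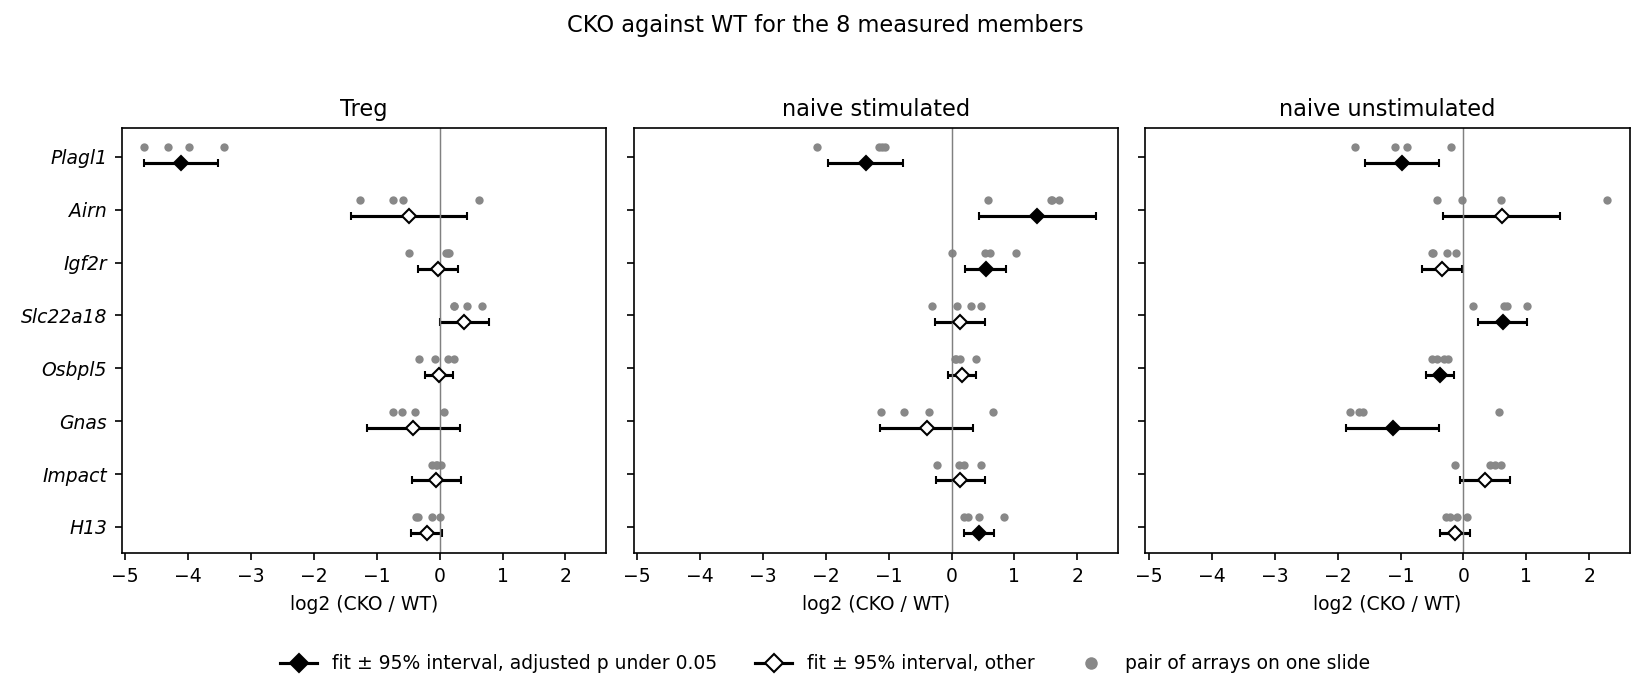
Log2 fold change of CKO over WT (x axis) for the brightest kept probe of the 8 measured members (y axis) in Treg, stimulated naive and unstimulated naive cells. Diamonds are the limma estimates with 95% intervals, filled where the adjusted p is under 0.05, and grey points are the 4 differences between a CKO and a WT array on one slide; Plagl1 in Treg lies at -4.11, below the estimates of all other members.

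Plagl1 encodes a zinc finger transcription factor, also known as ZAC1, that restrains proliferation and is expressed from the paternal copy. It showed the widest range of the 8 measured members across the 6 groups, 6.96 log2 units between the highest and the lowest group mean. In Treg its brighter probe stood at -2.10, -2.0, -1.23 and -1.68 on the 4 CKO arrays, against 2.60, 2.32, 2.20 and 2.30 on the 4 WT arrays. Every CKO Treg array lay far below every WT Treg array. The log2 fold change was -4.11 ± 0.28 (SE), a 17.3-fold lower level in CKO with a 95% interval of -4.70 to -3.52 and an adjusted p of 2.61e-09. In pairs of arrays that shared a slide the difference was -4.71 to -3.43, lower in CKO in 4 of 4. The second probe stood at -4.93, -5.35, -4.11 and -6.88 on the CKO Treg arrays, none of them well above background, against -0.54, -0.10, -0.91 and -0.76 on the WT Treg arrays. By that probe Plagl1 was at least 9.56-fold lower in CKO Treg (adjusted p = 3.28e-06); the bound sets the WT mean against the lowest signal well above background on the CKO arrays, or the probe's own where that is higher. In sorted populations fewer cells that express a gene and less RNA per cell cannot be told apart. Foxp3, the defining Treg factor, was at 3.20 to 3.58 in CKO and 3.09 to 3.52 in WT Treg and the genotypes overlapped (0.08, adjusted p = 0.931). Of the 6 Treg markers, with Foxp3 among them, 0 were higher and 1 was lower in CKO Treg. Of all genes 2.38% were higher and 1.77% lower. The brighter probe kept its Treg call in 22 of 22 alternative settings, at -4.52 to -2.28.

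In stimulated naive cells Plagl1 was also lower in CKO, at -1.61, -1.95, -1.73 and -2.13 against -0.55, 0.19, -0.62 and -0.98 in WT. The 2 genotypes did not overlap. The log2 fold change was -1.36 ± 0.28, or 2.57-fold lower, with an adjusted p of 0.00231, and the call was made in 22 of 22 alternative settings at -1.63 to -0.73. The second probe gave -1.90 ± 0.53 (adjusted p = 0.0147), with 3 of 4 CKO arrays well above background, and its call was lost without WT stimulated replicate 3, at -1.41 (adjusted p = 0.0586).

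In unstimulated naive cells Plagl1 was dim, at -5.19, -4.22, -4.28 and -4.71 in CKO against -3.46, -3.13, -3.39 and -4.50 in WT, with 3 of 4 arrays well above background in each genotype. The genotypes overlapped, since WT replicate 4 lay among the CKO arrays. The log2 fold change was -0.98 ± 0.28, or 1.97-fold lower, with an adjusted p of 0.0227, and all 4 slide pairs were lower in CKO. This call was made in 12 of 22 alternative settings, at -1.27 to 0. With a floor of -2.69 under the signal, which none of the 8 values reached, the difference was 0, and with normexp background correction it was -0.09 (adjusted p = 0.904). The call was also lost without CKO replicate 1, at -0.78 (adjusted p = 0.0773), and without WT replicates 1, 2 and 3 in turn, at -0.93, -0.81 and -0.90 (adjusted p = 0.0543, 0.0952 and 0.0705), and with the probe-position covariate it was -0.53 (adjusted p = 0.879). The second probe was not well above background on any unstimulated array. Foxp3 was higher in CKO in both naive states, by 2.45 in stimulated and by 0.96 in unstimulated cells (adjusted p = 6.73e-08 and 0.00387), and its part in the Plagl1 results was not tested. Of the 6 Treg markers 2 were higher and 1 lower in CKO stimulated cells, beside 11.3% and 12.0% of all genes. In unstimulated cells 3 were higher and 1 lower, beside 7.88% and 10.9%.

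As measured, the genotype effect on Plagl1 was larger in Treg than in either naive state. The effect in Treg minus that in unstimulated cells was -3.13 ± 0.40 (adjusted p = 0.000443), and the effect in Treg minus that in stimulated cells was -2.75 ± 0.40 (adjusted p = 0.000463). Both differences were called in 30 of 30 alternative settings. In unstimulated cells the brighter probe was dim in both genotypes, with group means of -4.60 in CKO and -3.62 in WT. A fall as large as that in Treg could not have been read there, so the first difference is limited by the background. The effect in stimulated minus that in unstimulated cells was -0.39 ± 0.40 (adjusted p = 0.698), with a 95% interval of -1.22 to 0.45.

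Plagl1 was itself raised both in Treg and by stimulation, in both genotypes. Its brighter probe was 63.0-fold higher in WT Treg than in WT unstimulated naive cells (log2 5.98 ± 0.28, adjusted p = 3.51e-12), and 7.19-fold higher in CKO Treg than in CKO unstimulated cells (log2 2.85 ± 0.28, adjusted p = 2.88e-07). After stimulation it was higher by 2.75 in CKO and by 3.13 in WT (adjusted p = 4.87e-08 and 5.05e-09). The size of these differences varied with the processing. Over 22 alternative settings, all of which made the 4 calls, the log2 difference between Treg and unstimulated cells was 0.93 to 3.12 in CKO and 3.48 to 6.56 in WT, and that after stimulation was 0.83 to 2.92 in CKO and 1.54 to 3.35 in WT. From low to high, the group means were -4.60 ± 0.45 (SD, n = 4) in CKO unstimulated, -3.62 ± 0.61 in WT unstimulated, -1.85 ± 0.23 in CKO stimulated, -1.75 ± 0.40 in CKO Treg, -0.49 ± 0.49 in WT stimulated and 2.36 ± 0.17 in WT Treg. The arrays of CKO stimulated cells and CKO Treg overlapped, as did those of both unstimulated groups, and each other neighbouring pair in that order was separate.

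**Figure D2:**
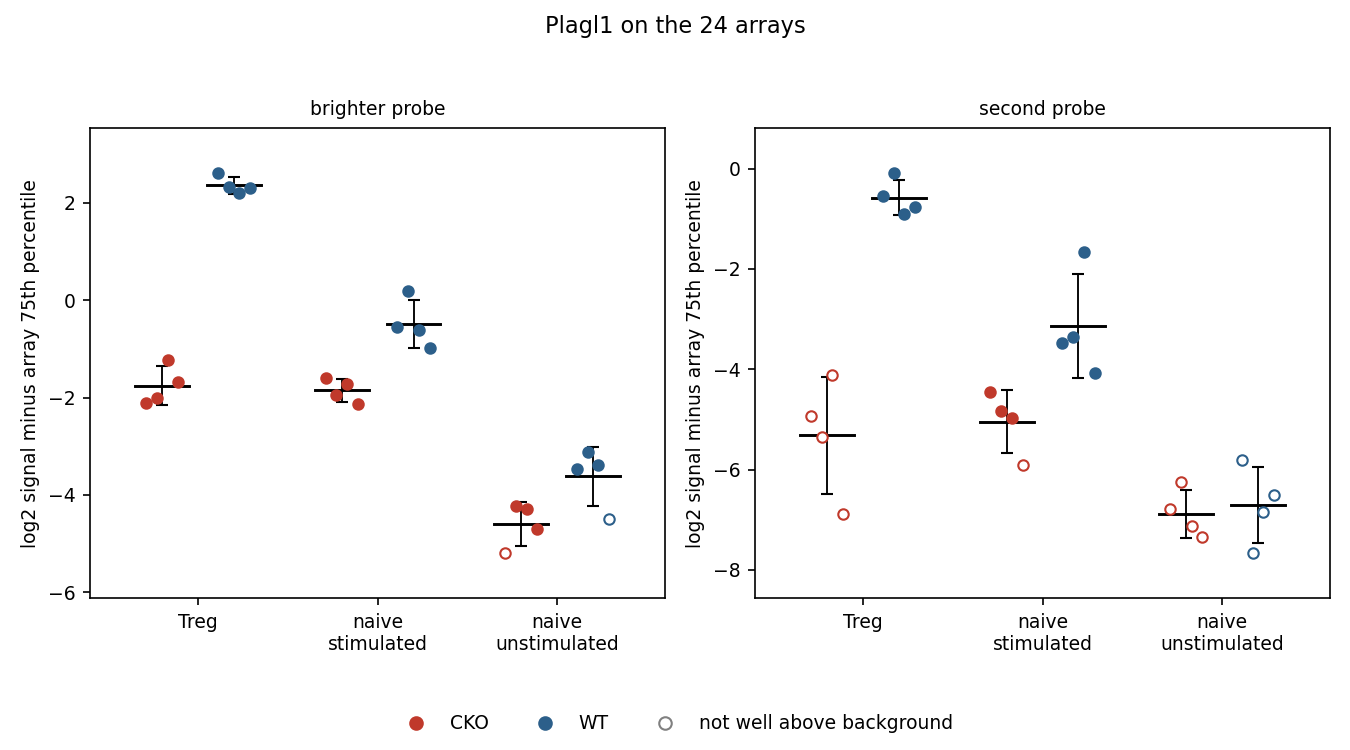
Log2 signal of Plagl1 minus the array's 75th percentile (y axis) by state (x axis) for its brighter probe (left) and its second probe (right), with CKO in red and WT in blue. Points are arrays, open where not well above background, and bars are the mean ± SD of 4; the 4 WT Treg arrays reach 2.20 to 2.60 by the brighter probe while the 4 CKO Treg arrays stay at -2.10 to -1.23.

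The 3 genes whose 6 group means were most like those of Plagl1, by the root mean square difference after centring each gene, were Penk at 0.61, Ccr8 at 0.83 and C2cd4b at 0.94 log2 units. Penk encodes the precursor of the enkephalin peptides and Ccr8 a chemokine receptor found on Treg. Centred on its 6 groups, Penk stood at 0.93 in CKO Treg and 3.24 in WT Treg, beside -0.09 and 4.02 for Plagl1. Ccr8 stood at 0.26 in CKO Treg and 2.22 in WT Treg.

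Airn and Igf2r overlap on chromosome 17. Airn is a long non-coding RNA of the paternal copy that starts within Igf2r, runs antisense to it and silences Igf2r on the same copy. Igf2r encodes the cation-independent mannose 6-phosphate receptor, which carries lysosomal enzymes and removes IGF2, and is expressed from the maternal copy outside the brain. In stimulated naive cells both RNAs were higher in CKO. Airn stood at -1.63, -1.57, -0.37 and -2.17 in CKO against -3.22, -3.27, -1.95 and -2.76 in WT. The groups overlapped at 1 WT array, replicate 3. The differences within the 4 slide pairs were 0.59 to 1.71, higher in CKO. Airn had a log2 fold change of 1.37 ± 0.45, or 2.58-fold higher, with an adjusted p of 0.0335. A second Airn probe gave 1.61 (adjusted p = 0.0280) with 2 of 4 WT arrays well above background, and the third gave 1.24 (adjusted p = 0.145). The Airn call was made in 12 of 23 alternative settings. It was lost without CKO replicates 1, 2 and 3 in turn, at 1.43, 1.41 and 1.01 (adjusted p = 0.0510, 0.0615 and 0.133), and without WT replicates 1 and 2, at 1.23 and 1.21 (adjusted p = 0.0838 and 0.102). The second probe lost its call without the same 5 arrays, at 1.22 to 1.63 (adjusted p = 0.0530 to 0.114). With quantile normalization the brightest probe gave 1.10 (adjusted p = 0.0949).

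Igf2r stood at 3.29, 3.53, 3.39 and 3.60 in CKO stimulated cells against 3.29, 2.92, 2.86 and 2.58 in WT stimulated cells. All CKO arrays lay above all WT arrays, by a narrow margin at replicate 1, where the slide pair differed by 0.01. Igf2r had a log2 fold change of 0.54 ± 0.15, or 1.46-fold higher, with an adjusted p of 0.0171. The call was made in 20 of 23 alternative settings and was lost without WT replicate 4, at 0.43 (adjusted p = 0.0544).

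In unstimulated cells Igf2r stood at 3.14, 2.86, 3.23 and 3.22 in CKO against 3.40, 3.35, 3.34 and 3.72 in WT. The 4 CKO arrays lay below the 4 WT arrays, but the log2 fold change of -0.34 ± 0.15 had an adjusted p of 0.121. The genotype effect on Igf2r in stimulated minus that in unstimulated cells was 0.88 ± 0.22 (adjusted p = 0.0295). Seen by genotype, Igf2r was lower after stimulation in WT, by -0.54 (adjusted p = 0.00465), whereas in CKO the change was 0.34 (adjusted p = 0.0602). The difference was called in 22 of 31 alternative settings. It was lost without CKO unstimulated replicates 1 and 2, at 0.89 and 0.80 (adjusted p = 0.0507 and 0.0755), without CKO stimulated replicate 2, at 0.86 (adjusted p = 0.0650), without WT stimulated replicates 2, 3 and 4, at 0.88, 0.87 and 0.77 (adjusted p = 0.0529, 0.0560 and 0.0598), and with the probe-position covariate, at 0.85 (adjusted p = 0.0640).

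In unstimulated cells Airn stood at -2.43, -1.59, -2.22 and -2.39 in CKO against -2.01, -3.87, -2.81 and -2.37 in WT, and the fold change of 0.61 ± 0.45 on the log2 scale did not pass the test (adjusted p = 0.341). In Treg the genotypes overlapped for both genes. Airn stood at -2.47, -1.21, -0.94 and -0.43 in CKO Treg against -1.21, -0.47, -0.36 and -1.06 in WT Treg (log2 fold change -0.49 ± 0.45, 95% interval -1.42 to 0.44, adjusted p = 0.750). Igf2r stood at 4.72, 4.51, 4.06 and 4.62 in CKO Treg against 4.59, 4.40, 4.55 and 4.47 in WT Treg (log2 fold change -0.02 ± 0.15, 95% interval -0.35 to 0.30, adjusted p = 0.977). Both RNAs were higher in Treg than in unstimulated naive cells. Igf2r was higher by 1.37 in CKO and by 1.05 in WT (adjusted p = 1.48e-06 and 2.85e-05). Airn was higher by 1.99 in WT (adjusted p = 0.00148), and by 0.90 in CKO (adjusted p = 0.1504), which did not pass. In WT the Airn difference was 1.08 with the probe-position covariate (adjusted p = 0.426). Igf2r reached 4.48 ± 0.29 (SD, n = 4) in CKO Treg and 4.50 ± 0.08 in WT Treg, its 2 highest groups, which overlapped each other and no naive group.

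**Figure D3:**
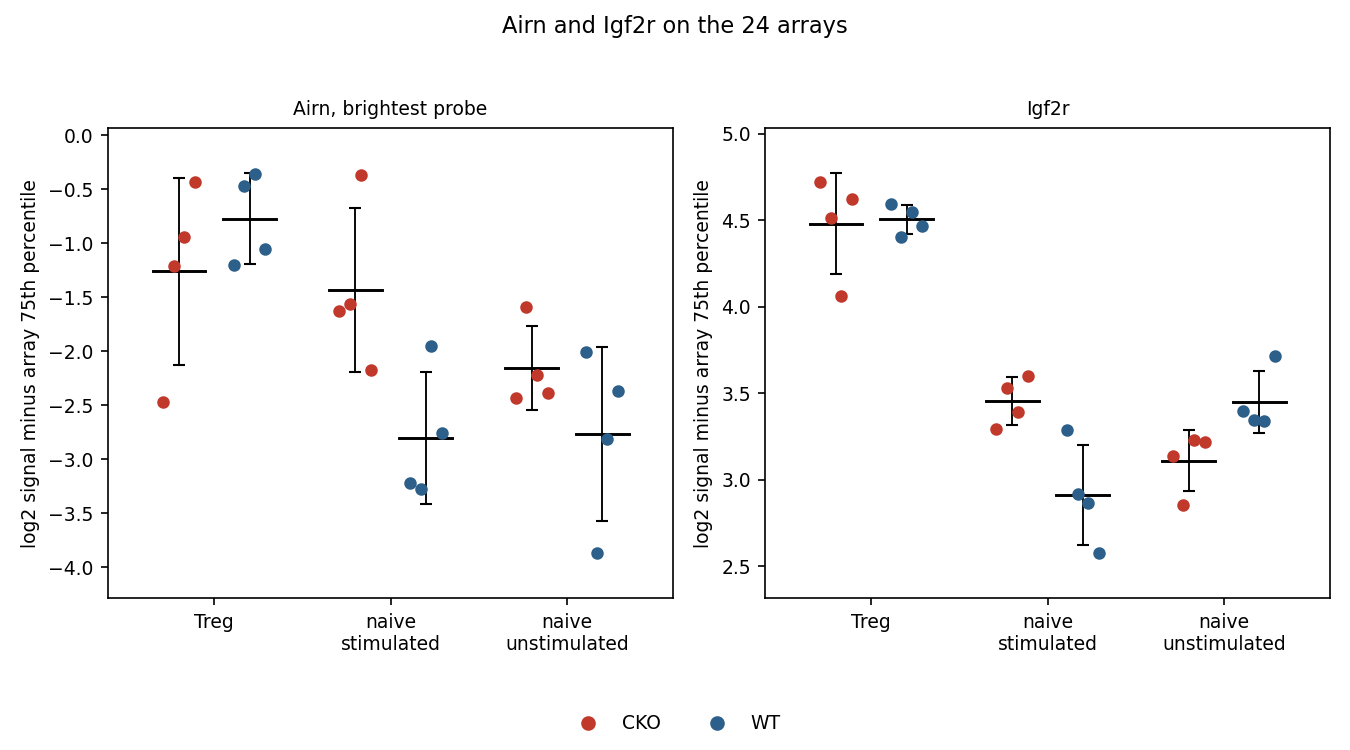
Log2 signal minus the array's 75th percentile (y axis) of Airn by its brightest probe (left) and of Igf2r (right) by state (x axis), CKO in red and WT in blue. Points are arrays and bars the mean ± SD of 4; in stimulated naive cells the CKO mean is above the WT mean for both, and in Treg the genotypes overlap for both.

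The genes most like Airn over the 6 group means were Runx2 at a root mean square difference of 0.13, Tbc1d4 at 0.19 and Plxnb1 at 0.26 log2 units. Those most like Igf2r were Dtx3 at 0.09, Klc3 at 0.15 and Adrb1, the beta-1 adrenergic receptor, at 0.16.

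Slc22a18 and Osbpl5 lie near each other on distal chromosome 7, in a cluster of maternally expressed genes under the Kcnq1ot1 imprinting centre. Slc22a18 encodes a membrane transporter of the organic cation family and Osbpl5 an oxysterol-binding protein that moves lipids between the endoplasmic reticulum and the plasma membrane. In unstimulated cells they moved in opposite directions in CKO. Slc22a18 stood at -3.04, -3.07, -2.69 and -2.99 in CKO against -3.68, -4.07, -3.39 and -3.14 in WT. The CKO arrays were all above the WT arrays. The log2 fold change was 0.62 ± 0.19, or 1.54-fold higher, with an adjusted p of 0.0268. With the floor of -2.69, which most values of this dim probe did not reach, the difference was 0. Osbpl5 stood at 2.09, 1.94, 1.94 and 2.10 in CKO unstimulated cells against 2.59, 2.37, 2.25 and 2.35 in WT unstimulated cells. The CKO arrays were all below the WT arrays, and the log2 fold change was -0.37 ± 0.11, or 1.29-fold lower (adjusted p = 0.0209).

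The Slc22a18 call in unstimulated cells was made in 12 of 22 alternative settings and was lost without CKO replicate 3, at 0.54 (adjusted p = 0.0891), without WT replicates 1 and 2, at 0.59 and 0.46 (adjusted p = 0.0618 and 0.121), and with the probe-position covariate, at 0.41 (adjusted p = 0.805). The Osbpl5 call was made in 12 of 23 settings and was lost without CKO replicates 2 and 3, at -0.35 for each (adjusted p = 0.0651 and 0.0641), without WT replicates 1 and 2, at -0.31 and -0.38 (adjusted p = 0.0686 and 0.0537), and with the covariate, at -0.25 (adjusted p = 0.720). Markers of other cells were also present in these groups. The 8 B cell markers summed to 14.4 to 48.4 times the 75th percentile in CKO and to 5.57 to 21.9 times in WT unstimulated cells. The ranges overlapped, and 7 of 8 were well above background on all 4 arrays in each. Of the 7 B cell markers with a kept probe 1 was higher in CKO. Of 7 CD8, NK and unconventional T cell markers 2 were higher, and of 7 myeloid markers 0 were called. Of all genes 7.88% were higher and 10.9% lower. The myeloid markers summed to 69.6 to 98.6 in CKO and to 76.6 to 134 in WT. The part of these markers in the results was not tested.

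Outside the unstimulated state neither gene passed the test between genotypes. Slc22a18 stood at -2.84, -3.02, -2.61 and -2.89 in CKO Treg against -3.08, -3.25, -3.29 and -3.33 in WT Treg, without overlap, at a log2 fold change of 0.39 ± 0.19 (adjusted p = 0.365). In stimulated cells it stood at -3.66, -3.37, -4.19 and -3.25 in CKO against -3.75, -3.68, -3.88 and -3.71 in WT (0.14, adjusted p = 0.633). Osbpl5 differed by -0.01 in Treg and by 0.16 in stimulated cells (adjusted p = 0.984 and 0.275). Osbpl5 was lower after stimulation in both genotypes, by -0.66 in CKO and by -1.19 in WT (adjusted p = 1.87e-05 and 3.78e-09). The stimulated arrays stood at 1.46, 1.44, 1.23 and 1.33 in CKO and at 1.06, 1.31, 1.16 and 1.27 in WT, all below the unstimulated arrays of their genotype. Osbpl5 was also lower in WT Treg than in WT unstimulated cells, by -0.50 (adjusted p = 0.000952), while the difference in CKO was -0.14 (adjusted p = 0.346). That WT difference was -0.01 with scaling on the brightest probes (adjusted p = 0.951) and -0.34 with the probe-position covariate (adjusted p = 0.253). Slc22a18 was lower after stimulation in CKO, by -0.67 (adjusted p = 0.00412), and differed by -0.18 in WT (adjusted p = 0.413).

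Gnas encodes the stimulatory G protein alpha subunit, which couples receptors to adenylyl cyclase, from a locus that also makes the imprinted XLαs, NESP55 and exon 1A transcripts. Its 4 kept probes lie, in the file's own coordinates on chromosome 2, between positions 174072921 and 174087618; the build of those coordinates is not named in the files. The 4 other probes, upstream of these or without a position, were not kept. In unstimulated cells the kept probes disagreed in sign by position. The most 3′ probe, the brightest, stood at -0.45, -0.35, -0.51 and 0.22 in CKO against 1.36, 1.31, 1.09 and -0.34 in WT. WT replicate 4 lay among the CKO arrays, apart from the other 3 WT arrays. This probe gave a log2 fold change of -1.13 ± 0.36, or 2.18-fold lower (adjusted p = 0.0331), and the neighbouring probe gave -1.07 ± 0.33 (adjusted p = 0.0288). The most 5′ kept probe stood at -1.45, -0.94, -0.91 and -0.91 in CKO against -2.80, -3.28, -2.82 and -0.54 in WT, a log2 fold change of 1.31 ± 0.45 in the other direction (adjusted p = 0.0457). WT replicate 4 again stood apart, above all CKO arrays, while the other 3 WT arrays lay below them. The probe next to it, described in the files as a non-coding RNA over the first exons, gave 0.96 ± 0.39 (adjusted p = 0.0841).

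The opposite signs of the Gnas probes are set here beside the probe-position measure of the arrays. WT unstimulated replicate 4, which stood apart on Gnas, had a measure of -0.07, against -0.22, -0.38 and -0.26 for WT unstimulated replicates 1 to 3. Replicate 4 also came from mice 7 weeks old and replicates 1 to 3 from mice 6 weeks old, and each of these arrays lay on a different slide. The part of age and slide was not tested. With the measure as a covariate the most 3′ Gnas probe was at -0.09 and the most 5′ at -0.14 (adjusted p = 1.00 for both). With that covariate 244 of 16457 genes, or 1.48%, were called in unstimulated cells, and 0 members were. In unstimulated cells the measure did not overlap between genotypes, so the covariate cannot separate it from genotype. The part of the measure in the result was not tested. Without WT replicate 4 the log2 fold change of the most 3′ probe was -1.53 and that of the most 5′ probe 1.92. The call of the most 3′ probe was lost without CKO replicates 1, 2 and 3, at -1.07, -1.10 and -1.05 (adjusted p = 0.0737, 0.0779 and 0.0880), and without WT replicates 1, 2 and 3, at -0.96, -0.97 and -1.05 (adjusted p = 0.0927, 0.116 and 0.0895). The neighbouring probe lost its call without the same 6 arrays, at -1.06 to -0.89. The most 5′ probe lost its call without each of the 8 unstimulated arrays but WT replicate 4, at 1.00 to 1.44.

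**Figure D4:**
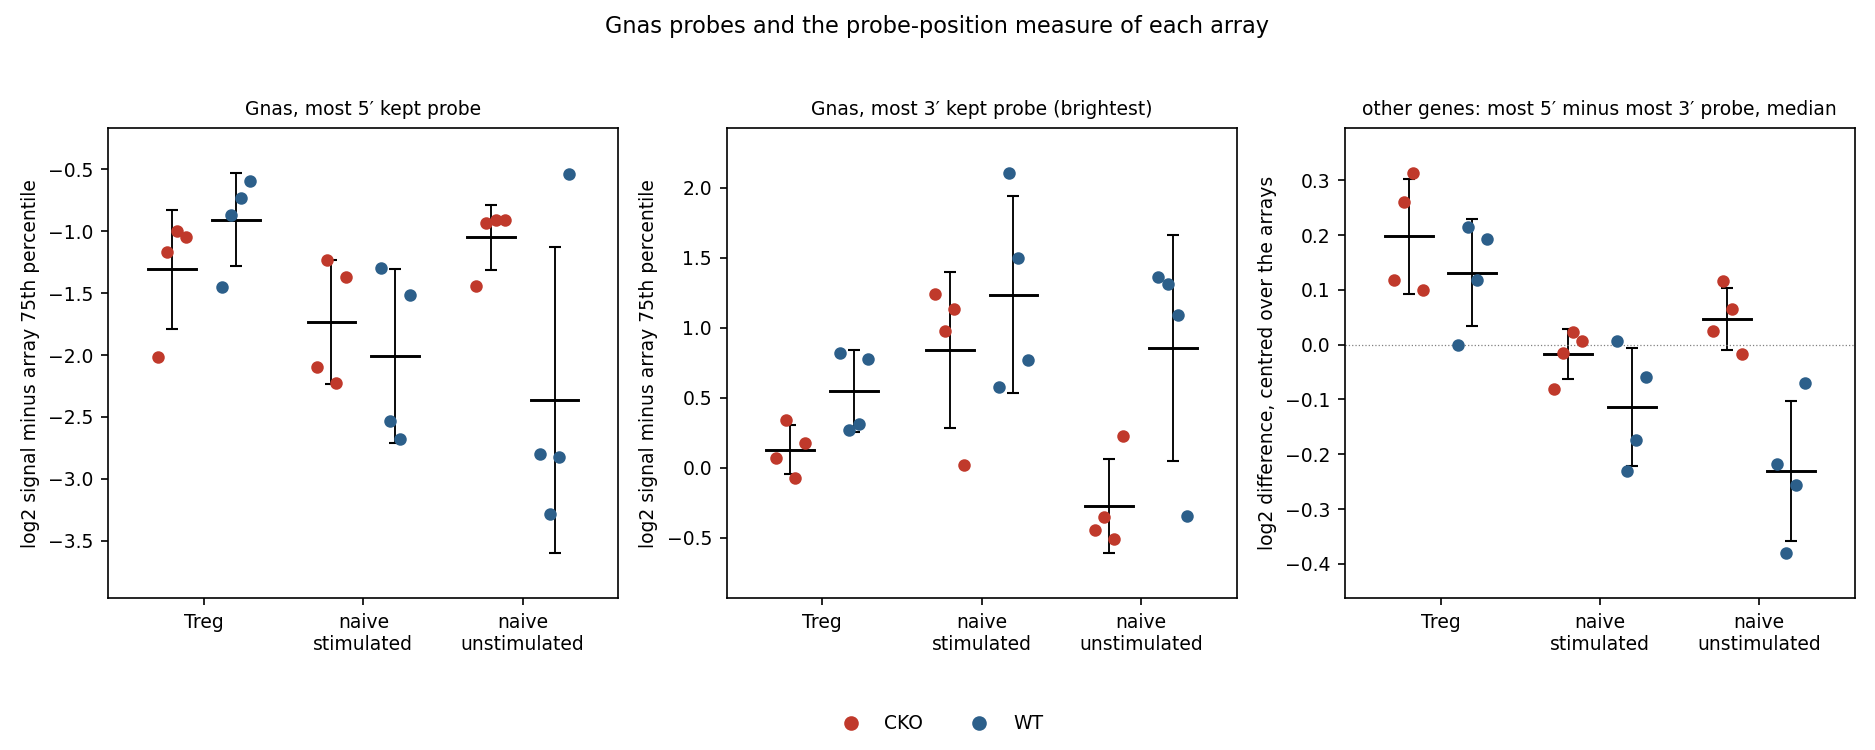
Log2 signal minus the array's 75th percentile (y axis) of the most 5′ (left) and most 3′ (middle) kept Gnas probes, and the median 5′ minus 3′ difference over 4574 other genes (right, log2, centred), by state (x axis) for CKO in red and WT in blue. Points are arrays and bars the mean ± SD of 4; among unstimulated arrays WT replicate 4 lies apart from the other WT arrays on both probes and nearest to CKO on the right.

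In Treg and in stimulated cells no Gnas probe passed the test between genotypes. By the most 3′ probe Gnas stood at 0.07, 0.34, -0.07 and 0.17 in CKO Treg against 0.82, 0.27, 0.31 and 0.78 in WT Treg (-0.42 ± 0.36, adjusted p = 0.727). In stimulated cells it stood at 1.24, 0.97, 1.13 and 0.02 in CKO against 0.57, 2.10, 1.499 and 0.77 in WT (-0.39 ± 0.36, adjusted p = 0.441). The groups overlapped in both states. After stimulation the kept probes again disagreed. The most 3′ probe was higher in CKO, by 1.11 (adjusted p = 0.0106), as was its neighbour, by 1.03 (adjusted p = 0.0102), and in WT they differed by 0.38 and 0.23 (adjusted p = 0.370 and 0.556). The probe next to the most 5′ was lower, by -1.01 in CKO and by -0.91 in WT (adjusted p = 0.0301 and 0.0471). It was called in 15 of 21 alternative settings in CKO and in 8 of 21 in WT. The CKO call was lost without stimulated replicate 4 or unstimulated replicate 2, 3 or 4, at -0.97 to -0.85. The WT call was lost without stimulated replicate 1, 2 or 3 or unstimulated replicate 1, 3 or 4, at -0.94 to -0.63. The most 5′ probe differed by -0.68 in CKO and by 0.35 in WT (adjusted p = 0.198 and 0.514). The mean of the 4 kept probes differed by 0.11 in CKO (adjusted p = 0.605).

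H13 encodes signal peptide peptidase, a protease that cuts signal peptides within the membrane. Its imprint depends on Mcts2, a retrogene in one of its introns, and the site at which H13 transcripts end differs between the parental copies. In stimulated cells the brightest H13 probe, which is the most 3′, stood at 2.89, 2.81, 2.69 and 2.64 in CKO against 2.05, 2.38, 2.43 and 2.44 in WT. All CKO arrays were above all WT arrays, with a log2 fold change of 0.43 ± 0.12, or 1.35-fold higher (adjusted p = 0.0125), in 20 of 23 alternative settings. In that state the middle H13 probe went the other way, at a mean of 3.05 in CKO and 3.25 in WT. It was lower in CKO in 3 of 4 slide pairs and did not pass the test. Between genotypes the most 3′ probe differed by -0.21 in Treg and by -0.14 in unstimulated cells (adjusted p = 0.480 and 0.415). The genotype effect in Treg minus that in stimulated cells was -0.64 ± 0.16 (adjusted p = 0.0291), called in 21 of 31 alternative settings. It was lost without CKO Treg replicate 1, at -0.59 (adjusted p = 0.0655), without WT Treg replicates 3 and 4, at -0.59 and -0.62 (adjusted p = 0.0684 and 0.0543), without CKO stimulated replicates 1 and 2, at -0.60 and -0.62 (adjusted p = 0.0657 and 0.0643), and without WT stimulated replicate 1, at -0.55 (adjusted p = 0.0594).

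The H13 probes differed from each other in their response to stimulation. In WT the most 3′ probe was lower after stimulation, by -0.63 (adjusted p = 7.11e-05), and in CKO it differed by -0.06 (adjusted p = 0.662). The middle probe was higher after stimulation in both genotypes, by 1.02 in CKO and by 0.74 in WT (adjusted p = 2.06e-06 and 8.99e-05). Without overlap, it stood at 3.21, 3.01, 3.09 and 2.88 in CKO stimulated cells against 1.97, 1.82, 2.04 and 2.28 in CKO unstimulated cells. Between genotypes the middle probe was lower in CKO in unstimulated cells, by -0.49 ± 0.14 (adjusted p = 0.0204). That call was lost without CKO replicate 2, at -0.42 (adjusted p = 0.0754), and without WT replicates 2 and 3, at -0.46 and -0.47 (adjusted p = 0.0688 and 0.0586). It was made in 13 of 21 alternative settings, at -0.57 to -0.07, the smallest with the probe-position covariate (adjusted p = 1.00). The most 5′ probe gave -0.50 in Treg, 0.94 in stimulated and 0.99 in unstimulated cells, none past the test (adjusted p = 0.788, 0.192 and 0.176). Mcts2 gave 0.01, -0.14 and 0.52 in the same order (adjusted p = 0.988, 0.614 and 0.0533).

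Impact encodes a protein that binds GCN1 and restrains the kinase GCN2, and it is expressed from the paternal copy. It did not pass the test between genotypes in any state. Impact stood at 1.29, 1.34, 1.93 and 1.69 in CKO Treg against 1.27, 1.39, 2.00 and 1.82 in WT Treg (-0.05, 95% interval -0.44 to 0.34, adjusted p = 0.957). In stimulated cells it stood at 1.01, 0.90, 1.10 and 0.51 in CKO against 0.53, 0.70, 0.99 and 0.75 in WT (0.14, adjusted p = 0.625). In unstimulated cells it stood at 1.55, 1.61, 1.81 and 1.53 in CKO against 1.69, 1.01, 1.30 and 1.11 in WT (0.35, 95% interval -0.05 to 0.74, adjusted p = 0.194). The genotypes overlapped in each state. Impact was lower after stimulation in both genotypes, by -0.74 in CKO and by -0.53 in WT (adjusted p = 0.00193 and 0.0180), without overlap in either. The WT call was lost without WT stimulated replicate 1, at -0.46 (adjusted p = 0.0566), and without WT unstimulated replicate 1, at -0.40 (adjusted p = 0.0824).

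**Figure D5:**
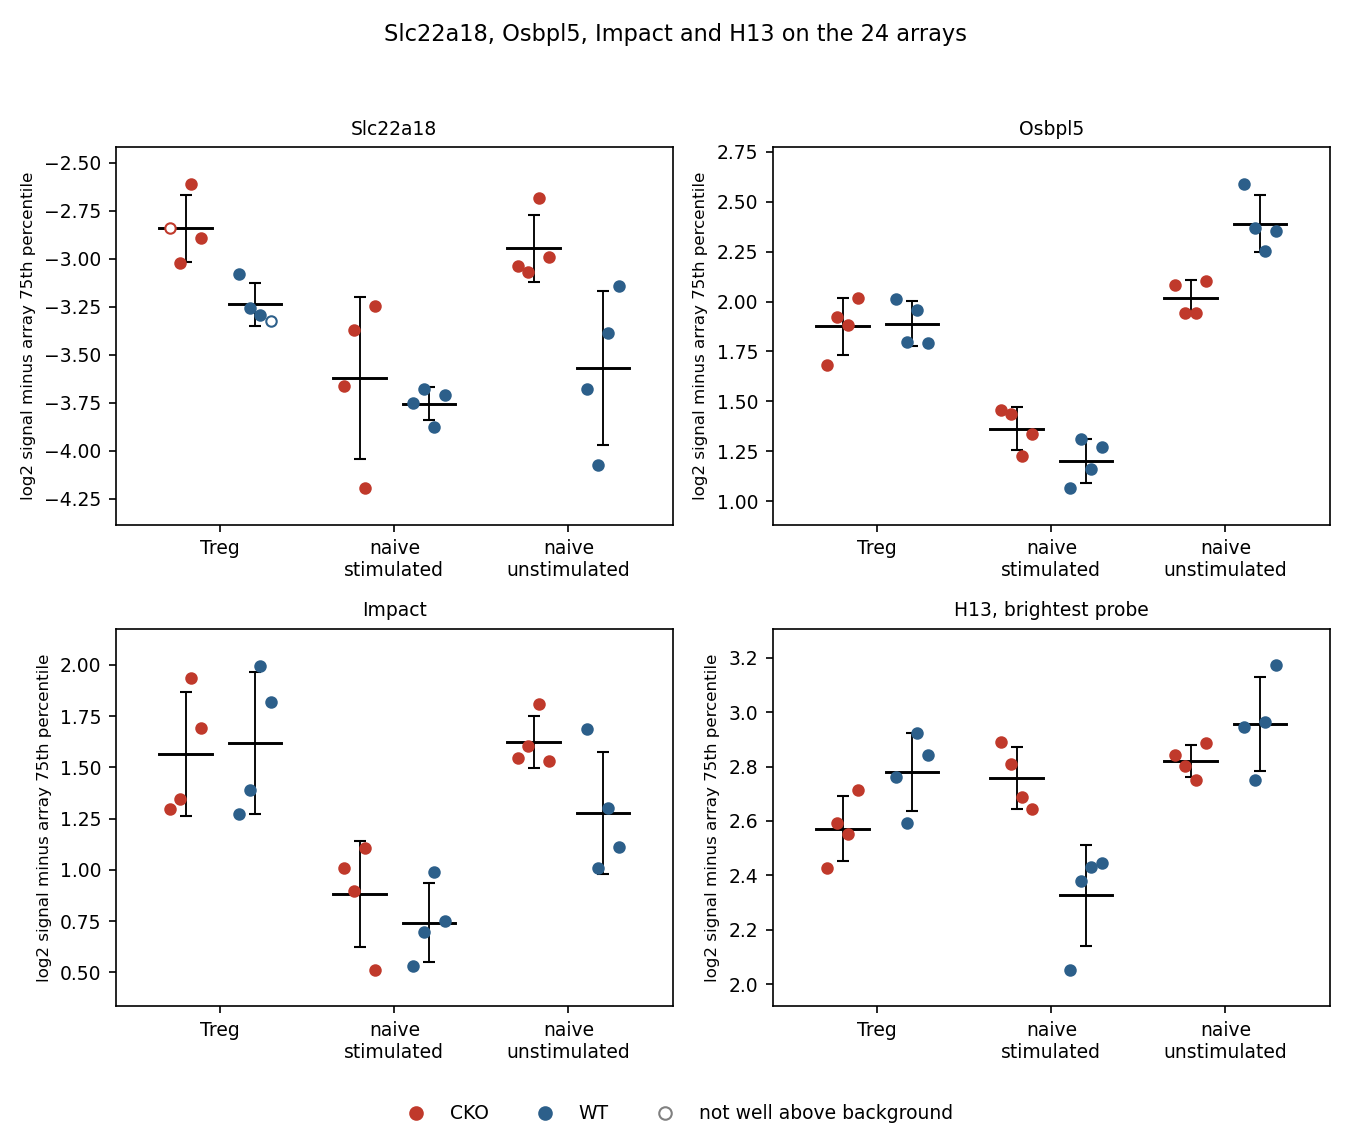
Log2 signal minus the array's 75th percentile (y axis) of Slc22a18, Osbpl5, Impact and H13 by their brightest kept probe and by state (x axis), CKO in red and WT in blue. Points are arrays, open where not well above background, and bars the mean ± SD of 4; Slc22a18 and Osbpl5 separate by genotype in unstimulated cells and H13 in stimulated cells, and Impact overlaps in all 3 states.

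Stimulation changed 5 of the 8 measured members in each genotype, near the share of all genes, which is given by direction below. Treg against unstimulated naive cells gave 2 members higher (Plagl1 and Igf2r) and 0 lower in CKO, with 3 at an unadjusted p under 0.05 by limma, beside 11.1% higher and 15.9% lower of all genes. The same comparison in WT gave 3 higher (Plagl1, Airn and Igf2r) and 1 lower (Osbpl5), beside 18.7% and 29.1%. Gnas and H13 were not called there by their brightest probes, at -0.31 for Gnas (adjusted p = 0.492). The most 5′ Gnas probe was higher, by 1.45 (adjusted p = 0.0128), as was the probe next to it. The middle H13 probe was lower, by -0.47 (adjusted p = 0.00925). With the probe-position covariate the most 5′ Gnas probe was at -0.44 and the middle H13 probe at 0.08. Stimulated against unstimulated naive cells gave 2 higher (Plagl1 and Gnas) and 3 lower (Slc22a18, Osbpl5 and Impact) in CKO, beside 29.6% and 30.4%; Gnas is counted there by its brightest probe, and another of its probes was lower. In WT it gave 1 higher (Plagl1) and 4 lower (Igf2r, Osbpl5, Impact and H13), beside 31.6% and 30.2%. H13 is counted there by its most 3′ probe, while its middle probe was higher in both genotypes. The Gnas probe next to the most 5′ was lower in WT too. These comparisons share the unstimulated arrays with the genotype comparisons. The genotype effect differed between Treg and stimulated cells for 2 members, Plagl1 and H13, beside 4.36% of all genes. It differed between Treg and unstimulated cells for 1 member, Plagl1, beside 0.377%, and between stimulated and unstimulated cells for 1 member, Igf2r, beside 3.22%. The last count was 0 without CKO unstimulated replicate 1 or 2, CKO stimulated replicate 2 or WT stimulated replicate 2, 3 or 4, and 2 without WT unstimulated replicate 2 or CKO stimulated replicate 4.

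Of 38 other imprinted genes measured, at most 7 passed the test between genotypes in a state, and the direction of those calls depended on the scaling. Of 80 listed, 75 were on the array and 38 had a kept probe. In CKO Treg 2 were lower and 0 higher, with 4 at an unadjusted p under 0.05 by limma: Phactr2, a phosphatase and actin regulator, at -1.29 ± 0.26 (adjusted p = 0.00379), and Sfmbt2, a polycomb group protein, at -0.60 (adjusted p = 0.0219). Of the 38 in stimulated cells, 6 were lower and 1 was higher, among them Phactr2 at -0.89, Commd1 at -0.69, Chrac1 at -0.56 and Tssc4 at -0.52 (adjusted p = 0.0187, 0.0140, 0.00916 and 0.0120). Of the same 38 in unstimulated cells, 5 were lower and 1 was higher, among them Tspan32 at -0.54, Tnfrsf22 at -0.52, Inpp5f at -0.49 and Sfmbt2 at -0.44 (adjusted p = 0.00489, 0.0333, 0.0114 and 0.0436). The median log2 fold change of the 38 was -0.02 in Treg, -0.12 in stimulated and 0.00 in unstimulated cells, against 0.00, -0.05 and 0.01 over all genes. Over all genes 1.77% were lower and 2.38% higher in Treg, 12.0% and 11.3% in stimulated cells, and 10.9% and 7.88% in unstimulated cells. With scaling on the brightest probes 7 of the 38 were higher and 1 lower in stimulated cells, and 2 were higher and 0 lower in unstimulated cells, while the Treg counts were the same. With the probe-position covariate 0 of the 38 were called in unstimulated cells, 1 was higher and 7 lower in stimulated cells, and 1 was higher and 2 lower in Treg.

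Phactr2 is also the second neighbour of Plagl1 on one side in the order of the RefSeq annotation. Ltv1, the first on that side, was not called in any state. On the other side Sf3b5, a splicing factor subunit, was lower in CKO by -0.82 in stimulated and by -0.71 in unstimulated cells (adjusted p = 0.0109 and 0.0268). Around Airn and Igf2r, Mrpl18, a mitochondrial ribosomal protein gene, was lower by -0.80 in stimulated cells (adjusted p = 0.00148). Tcp1, a chaperonin subunit gene, was lower by -0.82 in stimulated and by -1.10 in unstimulated cells (adjusted p = 0.0271 and 0.00779). Beside Impact, Cabyr was higher by 2.14 and Osbpl1a by 1.87 in CKO stimulated cells, and Psma8 was lower by -1.37 (adjusted p = 2.53e-05, 0.000267 and 0.0116). Of 28 measured neighbours of the members, listed after the data had been seen, 1 was higher and 1 lower in CKO Treg, 3 higher and 5 lower in stimulated cells, and 1 higher and 3 lower in unstimulated cells. Beside them, 1.77% of all genes were lower and 2.38% higher in Treg. The shares were 12.0% and 11.3% in stimulated cells, and 10.9% and 7.88% in unstimulated cells. With the covariate 0 of the 28 were called in unstimulated cells, and with scaling on the brightest probes 4 were higher and 2 lower in stimulated cells.

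Of 29 genes listed for the upkeep or removal of imprint marks, 26 had a kept probe, Trim28 among them. In CKO Treg 2 were higher and 1 lower. Setdb1, the H3K9 methyltransferase that TRIM28 recruits, was higher by 2.44 ± 0.21 (adjusted p = 5.89e-08), and Mbd1, a methyl-CpG binding protein, by 1.19 (adjusted p = 0.000211); the lower one was Trim28. In stimulated cells 4 were higher and 5 lower, with Mbd1 at 1.53, Setdb1 at 0.73, Atf7ip, a partner of SETDB1, at 0.71, and Uhrf1, which guides DNMT1 to replicated DNA, at -1.26 (adjusted p = 8.16e-06, 0.0170, 0.00218 and 0.000944). In unstimulated cells 4 were higher and 7 lower, with Mbd1 at 1.08, Atrx at 0.81, Tet3 at -0.76 and Mbd3 at -1.37 (adjusted p = 0.000595, 0.0334, 0.0205 and 0.0302). Dnmt1, the maintenance methyltransferase, was at 0.05, -0.35 and 0.18 in Treg, stimulated and unstimulated cells and did not pass in any (adjusted p = 0.945, 0.103 and 0.410). With scaling on the brightest probes 4 of the 26 were higher and 2 lower in stimulated cells, and 7 were higher and 2 lower in unstimulated cells. With the probe-position covariate 2 were called in unstimulated cells, Mbd1 and Trim28. Of all genes 2.38% were higher and 1.77% lower in Treg, 11.3% and 12.0% in stimulated cells, and 7.88% and 10.9% in unstimulated cells.

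Genes that act with the members gave the following counts, to be read beside the same shares over all genes. Of the 12 genes of the Gs pathway beside Gnas, all measured, 1 was lower in CKO Treg, Ptger4 at -0.63 (adjusted p = 0.0460), and 0 were higher, with 2 at an unadjusted p under 0.05 by limma. In stimulated cells 2 were higher, among them the adenosine receptor gene Adora2a at 0.99 (adjusted p = 0.00410). The prostaglandin E2 receptor gene Ptger2 was lower in CKO by -2.62 in stimulated cells and by -0.9985 in unstimulated cells (adjusted p = 5.63e-07 and 0.0118). Prkar1a, a regulatory subunit of protein kinase A, was lower in unstimulated cells by -0.61 (adjusted p = 0.02998), the other of 2 called there. Of the insulin and IGF genes beside Igf2r and Grb10, 3 of 6 were measured: Insr was higher by 0.77 in stimulated and by 0.87 in unstimulated cells (adjusted p = 0.00599 and 0.00390), and Igf1r was lower by -0.59 in Treg (adjusted p = 0.0177). With the probe-position covariate 0 genes of either list were called in unstimulated cells. With scaling on the brightest probes 5 Gs pathway genes were higher and 1 lower in stimulated cells, 2 were higher and 0 lower in unstimulated cells, and 0 of either list were called in Treg.

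In the GCN2 pathway beside Impact, 4 of 5 genes were measured and all calls were lower in CKO, 1 in Treg, 2 in stimulated and 2 in unstimulated cells. Of all genes 1.77%, 12.0% and 10.9% were lower in those comparisons. Eif2ak4, which encodes GCN2, was at -0.86 in Treg and -0.60 in unstimulated cells (adjusted p = 0.00978 and 0.0339). Eif2s1, which encodes its substrate eIF2 alpha, was at -0.80 in stimulated and -0.88 in unstimulated cells (adjusted p = 0.00641 and 0.00486), and Atf4 at -0.48 in stimulated cells (adjusted p = 0.0266). Of the 7 proteins of the Sm ring beside Snrpn, 4 were lower in stimulated cells, led by Snrpd1 at -0.91 and Snrpe at -0.89 (adjusted p = 0.00928 and 0.0104). In unstimulated cells 3 were lower, Snrpb at -1.06, Snrpd3 at -0.77 and Snrpe at -0.72 (adjusted p = 0.0325, 0.00815 and 0.0336). In Treg 0 of the 7 were called, with 0 at an unadjusted p under 0.05 by limma. With the covariate 0 genes of either list were called in unstimulated cells, where it left 1.48% of all genes. With quantile normalization 0 genes of either list were called in stimulated cells, where it called 13.7% of all genes.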

How the data were processed

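Total RNA was labelled with Cy3 by the Low Input QuickAmp method, per the labels' protocols, and each sample was hybridised to a 1-colour Agilent array. Each scanner file holds a processed signal per spot, an intensity on a linear scale made by the authors with Feature Extraction 9.5, per the submitters' processing notes and the file headers. The authors' deposited table holds normalized intensity on a linear scale and was used as an alternative. Control spots and spots the scanner software had marked as outliers were left out, spots of one probe were averaged, and log2 of the deposited intensity minus log2 of the array's 75th percentile was computed.

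Probes well above background on at least 3 of 4 arrays of 1 group were kept, 25198 of 41174. One limma model with a mean for each of the 6 groups was fitted to the 24 arrays, with no covariate, and p-values were adjusted by the Benjamini-Hochberg method over all kept probes. The 6 slides held 4 arrays each, and the CKO and WT arrays of one state and number shared a slide, so differences within a slide are given as pairs. All members are named. From the lists of other imprinted and of imprint upkeep genes, the rule was at most the 4 called genes with the largest change per comparison. For the 3 members whose group means range most widely, the 3 genes with the most similar group means are named. Genes named from the insulin and IGF, Gs pathway, GCN2 pathway and Sm ring lists were picked among those called, outside that rule. Neighbouring genes, Dnmt1 and Mcts2 were added after their values had been seen. The members and lists were chosen with earlier results of these data known, so the p-values of members are not independent evidence.

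Alternatives were quantile normalization, normexp background correction with an offset of 50, the authors' values, scaling on the 1000 brightest probes, other filters, a signal floor, array weights, blocks for slide and replicate number, other probe rules, leaving out each array, and a probe-position covariate chosen after seeing the data. The fit was tested on simulated data. R 4.3.3 with limma 3.58.1, jsonlite 2.0.0, and Python 3.11.15 with matplotlib 3.10.9 and numpy 2.4.6, were used. Promoter sequences are from RefSeq, build GRCm38.p6. A fold given as at least a value sets the bright group's mean against, per array of the dim group, the higher of the lowest signal well above background and the probe's own.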

Additional observations from a re-analysis of the deposited data

Results flagged for a closer look

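In 9 of 96 groups of 4 arrays, over the 16 kept member probes, 1 array stood apart from the other 3 by a gap, as a share of the group's whole range, past Dixon's 95% critical value for 4 samples; chance alone gives about 5% of groups. For Gnas, CKO unstimulated replicate 1 stood apart on the most 5′ kept probe, at 0.947, and on the probe next to it, at 0.836. CKO Treg replicate 1 stood apart on the most 5′ Gnas probe, at 0.839, and WT unstimulated replicate 4 on the most 3′, at 0.841. For H13, WT stimulated replicate 1 stood apart on the most 3′ probe, at 0.830, and WT Treg replicate 1 and WT unstimulated replicate 4 on the middle probe, at 0.868 and 0.866. For Igf2r, WT unstimulated replicate 4 stood apart, at 0.840. For Airn, WT Treg replicate 3 stood apart on the third probe, at 0.944.

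The genotype effect differed between states by limma's test of the difference for 3 members. For Plagl1 the effect in Treg minus that in stimulated cells was -2.75 by the brighter probe, and the effect in Treg minus that in unstimulated cells was -3.13. The latter is limited by the dim signal of that probe in unstimulated cells. The second probe gave -2.84 and -4.57, but it was not well above background on any CKO Treg array or any unstimulated array, so these are not measured sizes and are given as fitted values only. For H13 the effect in Treg minus that in stimulated cells was -0.64, and for Igf2r the effect in stimulated minus that in unstimulated cells was 0.88. The effect on Trim28 differed too, with the opposite signs: its effect in Treg minus that in stimulated cells was 1.12, and its effect in stimulated minus that in unstimulated cells was -1.17.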

How the results depend on the processing

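Of 8 measured members, 4 were called in unstimulated cells; the count was 2 with quantile normalization, the authors' values, probes well above background on all arrays, the signal floor or the mean of a gene's probes, 1 with scaling on the brightest probes or no filter, and 0 with normexp, only the groups compared, or the probe-position covariate chosen after seeing the data. In stimulated cells the 4 became 2 with normexp and 1 with only the groups compared. In Treg the 1 became 0 with probes well above background on all arrays, a filter that drops Plagl1. Stimulation in WT gave 3 with normexp, against 5. Treg against unstimulated cells gave 5 with normexp and 1 with the all-array filter in CKO, against 2, and 2 with the covariate in WT, against 4. The stimulated minus unstimulated difference, with 1 call, gave 0 with normexp, no filter or the covariate, 2 with the brightest probe alone in the fit or the mean of probes, 3 with the all-array filter or slide as a random block, and 4 with the floor or array weights. The Treg minus unstimulated difference gave 0 with the all-array filter, against 1, and the Treg minus stimulated difference gave 1 with normexp, no filter, the all-array filter, only the groups compared or the mean of probes, against 2. The cause was not tested.

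Leaving out 1 array gave 0 to 4 members in unstimulated cells, 3 to 4 in stimulated cells and 1 in Treg, 5 for stimulation in CKO and 4 to 5 in WT, 2 to 3 for Treg against unstimulated cells in CKO and 4 to 5 in WT, and 0 to 2, 1 and 1 to 2 for the 3 differences in the order above. Trim28 stayed at -1.65 to -1.49 in Treg, -2.77 to -2.54 in stimulated and -1.63 to -1.39 in unstimulated cells. The replicate block gave the same 10 counts as the fit without it (1 in Treg, 4 in stimulated and 4 in unstimulated cells between genotypes). Same-numbered arrays of a state, which shared a slide, correlated in their deviations at 0.08 to 0.43 in Treg. The range was -0.32 to 0.43 in stimulated and -0.20 to 0.12 in unstimulated cells. The fit did not take the numbers to pair the samples, and differences within a slide are given as a description.

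A change of sign was counted only where either value was called. The brightest Gnas probe was at 0.0188 in unstimulated cells, and at 0.5447 for Treg against unstimulated cells in WT, with the mean of probes. With the covariate the most 5′ Gnas probe was at -0.14 and -0.44 in those comparisons. The middle H13 probe in the second comparison was at 0.0155 with scaling on the brightest probes and at 0.0766 with the covariate. Over all genes 3098 were called in unstimulated cells (503 with normexp, 1855 with no filter, 1637 with only the groups compared, 6840 with array weights, 244 with the covariate), 3831 in stimulated cells (2256 with quantile normalization, 1559 with normexp, 2444 with no filter, 8159 with array weights) and 683 in Treg (88 with normexp, 358 with only the groups compared). Dim probes, Slc22a18 and the second Plagl1 probe above all, are limited by signal over background, most in Treg.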

Other observations

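Markers of other cells differed between some groups. In stimulated cells the 8 B cell markers summed to 1.35 to 5.45 times the array's 75th percentile in CKO and to 0.410 to 1.98 times in WT, and in Treg to 4.15 to 10.02 times in CKO and 3.56 to 7.34 times in WT. Of the 7 of these 8 markers that had a kept probe, 3 were higher in CKO stimulated cells and 1 in CKO unstimulated cells. Of all genes 11.3% and 7.88% were higher in those comparisons. Of 7 myeloid markers 0 were called between genotypes in any state. Of 7 CD8, NK and unconventional T cell markers, 1 was higher and 1 lower in each of CKO Treg and CKO stimulated cells. Of 2 stromal and epithelial markers with a kept probe, 1 was higher and 0 lower in CKO in each state. The 5 on the array summed to 0.474 to 0.632 in CKO and 0.174 to 0.233 in WT stimulated cells. Among all genes 2.38% were higher and 1.77% lower in Treg, 11.3% and 12.0% in stimulated cells, and 7.88% and 10.9% in unstimulated cells. Tnfrsf26, a neighbour of Osbpl5 that encodes a receptor of the TNF family, was higher in CKO stimulated cells by 0.94 (adjusted p = 0.000335). Zcchc3, a neighbour of H13, was higher by 0.73 in CKO Treg and by 0.69 in CKO unstimulated cells (adjusted p = 0.0387 and 0.0216).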
